A study of Mus musculus with 4 samples.

Results

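Heat shock and unfolded protein response genes are the chaperone genes and stress regulators listed for this description: 34 genes, matched by symbol. The list was made with earlier results of these data known. Of them, 33 were analysed among 23185 named genes, and Hsp90ab1 was not analysed here. They comprise 7 cytosolic chaperones and co-chaperones, 2 mitochondrial chaperonins, 19 endoplasmic reticulum (ER) genes (15 chaperones and folding factors and 4 genes of ER-associated degradation) and 5 regulators of the unfolded protein response. A filter on low values kept genes whose highest value on any array was at least 6.05, the median of all named values on the log2 scale. It kept 31 of the 33 members and 12395 genes in all. Hsp90aa1 and Trib3 lay below it. The 31 members stood at 7.11 or above on every array, so the filter did not select them through a single array.

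The cells were sorted from lungs of adult mice carrying both Acta2-hrGFP and Cspg4-DsRED, as green and not red cells, which the labels call airway smooth muscle cells. The Acta2 promoter drives the green reporter and is also active in other cells with contractile actin, and the Cspg4 promoter marks pericytes. RNA of 3 mice was pooled for each of 4 arrays. VAD mice ate a vitamin A-deficient diet (under 0.1 IU per gram) for 3 days by one label and 5 days by another, and VAS mice a routine sufficient diet (15 IU per gram). BMS mice ate powdered sufficient diet for 3 days containing BMS, a pan-antagonist of the retinoic acid receptors, at 5 mcg per gram, and CTR mice the same kind of diet with corn oil. Both transgenes are carried by all 4 groups, the controls included. With 1 array per group there are no replicates and no spread between mice, so "higher" and "lower" describe these arrays.

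Arrays correlated at 0.987 to 0.992 across probe sets. Acta2 stood at 12.12 in VAD, against 11.96 in VAS, and at 11.95 in BMS, against 11.98 in CTR. Cspg4 stood at 8.22 in VAD, against 7.71 in VAS, and at 7.98 in BMS, against 8.08 in CTR. The gene of the excluded reporter was therefore above the upper quartile of each array (7.61 to 7.63), and in such bulk RNA fewer cells of a type and less RNA per cell cannot be told apart.

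A pair of stress programmes meets in these genes. In the cytosol, unfolded proteins free the transcription factor Hsf1 from chaperones, and Hsf1 then raises the Hsp70 and Hsp40 families through heat shock elements in their promoters. In the ER, the sensors Ire1, Perk and Atf6 raise chaperones, disulfide isomerases and degradation genes through Xbp1, Atf4 and cleaved Atf6, in part through ER stress elements that Atf6 reads together with NF-Y. Smooth muscle cells secrete matrix proteins that are folded in the ER, and cell sorting itself can induce cytosolic heat shock genes.

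The promoters of the 2 programmes were searched for known elements. RefSeq windows of 250 bases before to 50 after a gene's start (GRCm38.p6) were found for 28 of the 33 members. The ER stress element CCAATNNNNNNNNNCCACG occurred on either strand in 8 of the 17 ER members with a window and in none of the other 11 members, against 37 of 27025 genes (0.137%). The heat shock element GAANNTTC occurred in 6 members, all cytosolic or mitochondrial, against 9.04% of genes, and TTCNNGAA in 3 of the same 6, against 9.6%. Each of the 2 heat shock letters reads the same on both strands, and they overlap one another in Hspd1, Hspe1 and Hsph1. The variant ER element ATTGGNCCACG lay in Dnajb11 and Herpud1 (0.0444% of genes). The amino acid response core TGATGNAA, which Atf4 binds, lay in Herpud1 and Trib3 (4.51% of genes), and TGACGTGG, a core of the unfolded protein response element, lay in no member's window (0.714% of genes). A match of letters is a description and not a shown binding site.

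The ER stress elements of the 8 members are printed to show what they share beyond the searched letters, which are in capitals. Each is read in the direction of CCAAT, and Hsp90b1 holds 2.
Hspa5: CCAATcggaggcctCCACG
Hsp90b1 distal: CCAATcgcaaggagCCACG
Hsp90b1 proximal: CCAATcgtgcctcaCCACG
Dnajc3: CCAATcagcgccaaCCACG
Calr: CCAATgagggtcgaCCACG
Canx: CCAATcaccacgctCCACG
Pdia6: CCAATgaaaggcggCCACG
Creld2: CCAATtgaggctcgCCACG
Syvn1: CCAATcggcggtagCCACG
Counted along the gene's strand, the first base of the element lay 44 bases before the start in Syvn1, 65 in Hspa5 and 212 for the distal copy in Hsp90b1. The other 6 copies lay between 98 and 162. The copies in Calr and Creld2 and the proximal copy in Hsp90b1 lay on the strand opposite to the gene. For these the base counted is the last base as printed. The 9 bases between the ends were free to differ and did differ in all 9 copies.

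**Figure D1:**
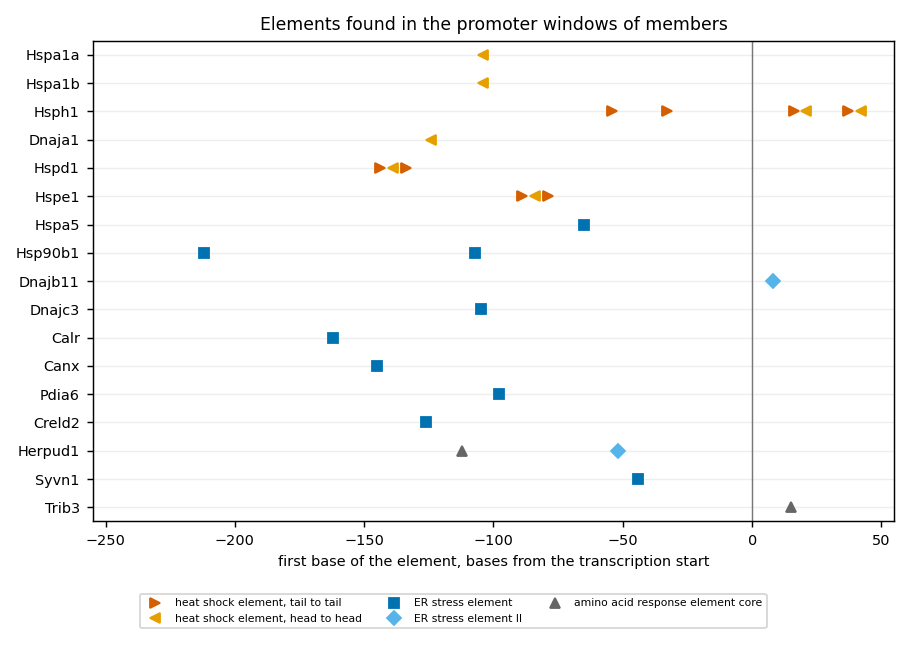
Position of each matched element in the promoter windows of the 17 members that hold one, as the distance of its first base from the transcription start (x axis, bases; members run down the page). Squares mark ER stress elements, all upstream of the start and all in ER genes, diamonds the variant ER element, sideways triangles the 2 forms of the heat shock element in cytosolic and mitochondrial genes, and upright triangles the amino acid response core. Hsph1 has 2 RefSeq starts, and the matches of both windows are drawn. First bases are counted along the gene's strand, also for elements on the opposite strand.

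Promoters are shown for the 4 members that hold a heat shock or ER stress element and had the largest difference within an experiment. Each run is the 250 bases before the start, 5′ to 3′ on the gene's strand, with the fixed letters of the elements in capitals. The Hspa1b stretch is chr17:34959239-34959488 (minus strand), that of Hsph1 is chr5:149636337-149636586 (minus), that of Pdia6 is chr12:17266339-17266588 (plus) and that of Calr is chr8:84846932-84847181 (minus).
Hspa1b: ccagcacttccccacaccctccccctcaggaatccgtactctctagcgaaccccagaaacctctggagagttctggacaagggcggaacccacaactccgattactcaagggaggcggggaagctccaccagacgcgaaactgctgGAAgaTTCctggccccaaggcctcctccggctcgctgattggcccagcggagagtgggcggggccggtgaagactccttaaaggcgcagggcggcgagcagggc
Hsph1: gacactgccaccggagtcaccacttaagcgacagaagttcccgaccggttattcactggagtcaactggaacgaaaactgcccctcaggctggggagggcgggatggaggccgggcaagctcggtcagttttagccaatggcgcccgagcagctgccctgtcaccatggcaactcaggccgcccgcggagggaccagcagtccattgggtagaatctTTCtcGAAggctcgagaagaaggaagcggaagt
Pdia6: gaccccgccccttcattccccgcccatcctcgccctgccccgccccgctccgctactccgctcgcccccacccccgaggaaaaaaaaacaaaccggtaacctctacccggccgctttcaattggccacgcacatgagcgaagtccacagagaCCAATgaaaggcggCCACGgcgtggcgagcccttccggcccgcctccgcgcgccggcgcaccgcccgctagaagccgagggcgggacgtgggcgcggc
Calr: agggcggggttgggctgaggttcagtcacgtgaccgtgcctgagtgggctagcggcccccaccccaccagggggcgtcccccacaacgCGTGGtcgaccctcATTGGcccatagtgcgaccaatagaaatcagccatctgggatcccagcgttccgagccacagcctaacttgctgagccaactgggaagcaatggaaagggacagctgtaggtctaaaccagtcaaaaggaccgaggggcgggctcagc
In this stretch Hspa1b and Hsph1 each have a single match to the searched heat shock letters. Pdia6 and Calr each have a single match to the ER stress element, in Calr on the opposite strand. Other forms of the heat shock element were not searched. Further heat shock matches of Hsph1 lay after the start. The 300-base windows of Hspa1a and Hspa1b were alike at 296 of 300 positions. These 2 genes encode nearly the same protein, so their probe sets may share signal, and their separate values are uncertain.

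The first comparison asked how the genes stood after a vitamin A-deficient diet, VAD against VAS. The ER genes were higher in VAD almost throughout, with 17 of 19 above 0 and a median difference of 0.32 on the log2 scale, while 5 of the 6 cytosolic members past the filter were lower, with a median of -0.30. Over all genes past the filter 51.4% were above 0 and the median was 0.01. At least 1.5-fold higher in VAD were 3 ER members, where 1.45% of all genes were, and at least 1.5-fold lower was 1 cytosolic member, where 2.11% of all genes were. No member was 2-fold apart. Each of these is a difference of 2 arrays and carries no test.

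Sdf2l1, an ER-resident partner of the Hsp70 of the ER, stood at 8.30 in VAD, 7.53 in VAS, 8.01 in BMS and 8.32 in CTR. It was 1.70-fold higher in VAD than in VAS, and VAS was the low array of the 4. Hyou1, a large Hsp70-like chaperone of the ER, stood at 8.17 in VAD, 7.51 in VAS, 8.06 in BMS and 8.06 in CTR. Its VAD value was 1.58-fold above VAS, with the other arrays 0.10 or more below VAD. Pdia6, a protein disulfide isomerase, stood at 9.78 in VAD, 9.15 in VAS, 9.79 in BMS and 9.58 in CTR. It was 1.55-fold higher in VAD than in VAS and again lowest in VAS. These 3 ranked 66, 110 and 135 among 12395 genes from the highest difference in VAD.

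Calr, calreticulin, a calcium-binding lectin chaperone, stood at 9.76 in VAD, 9.20 in VAS, 9.45 in BMS and 9.37 in CTR. It was 0.39 higher in VAD than in CTR, where Pdia6 was 0.20 and Hyou1 0.10 higher. Creld2, a secretory pathway protein induced by ER stress, stood at 9.64 in VAD, 9.18 in VAS, 9.66 in BMS and 9.84 in CTR, with VAS low and CTR high. Hspa5, the Hsp70 of the ER known as BiP, stood at 11.09 in VAD, 10.84 in VAS, 11.03 in BMS and 11.17 in CTR, a spread of 0.32 over the 4 arrays. The other folding factors with a higher value in VAD were Hsp90b1 (0.43, the ER Hsp90), Canx (0.36, calnexin), Dnajb11 (0.34), Manf (0.32), Pdia4 (0.29), Pdia3 (0.22) and Dnajc3 (0.20).

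The 2 ER members that were not higher in VAD were Dnajb9 and P4hb. Dnajb9, a co-chaperone of BiP, stood at 10.82 in VAD, 10.82 in VAS, 10.64 in BMS and 10.71 in CTR. P4hb, protein disulfide isomerase and the beta subunit of collagen prolyl hydroxylase, stood at 9.80 in VAD, 9.82 in VAS, 9.88 in BMS and 9.62 in CTR. Both differed by 0.02 or less between the diets.

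All 4 genes of ER-associated degradation were at or above their VAS value in VAD. Sel1l, the adaptor of the Hrd1 ubiquitin ligase, stood at 7.54 in VAD, 7.11 in VAS, 7.72 in BMS and 7.53 in CTR. Edem1, which helps select misfolded glycoproteins, stood at 9.71 in VAD, 9.43 in VAS, 9.67 in BMS and 9.86 in CTR. Syvn1, the Hrd1 ligase itself, stood at 8.32 in VAD, 8.18 in VAS, 8.54 in BMS and 8.58 in CTR. VAS was the lowest array for each of these 3, and Herpud1, a scaffold of the same complex, spanned only 10.04 in VAD to 10.21 in BMS, with 10.04 in VAS and 10.13 in CTR.

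Among the regulators, Xbp1, the transcription factor spliced by Ire1, stood at 10.78 in VAD, 10.36 in VAS, 10.92 in BMS and 10.78 in CTR. The array measures its total transcript and not its splicing. Ddit3, the stress factor known as Chop, went the other way, at 9.94 in VAD, 10.23 in VAS, 9.80 in BMS and 9.88 in CTR. Atf4 spanned 10.58 to 10.74 and Atf6 9.79 to 10.07 over the 4 arrays. Trib3, a target of Chop below the filter, stood at 5.94 in VAD, 5.55 in VAS, 5.74 in BMS and 5.97 in CTR. VAS was thus the low array for Xbp1 and Trib3 and the high array for Ddit3.

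The cytosolic chaperones ran against the ER genes in VAD. Hspa1b, an inducible Hsp70, stood at 10.08 in VAD, 10.83 in VAS, 11.15 in BMS and 10.56 in CTR, so that VAD was the lowest array by 0.48. Hspa1a, its near-copy, stood at 12.26 in VAD, 12.59 in VAS, 12.37 in BMS and 12.43 in CTR. Hspa8, the constitutive Hsp70, stood at 10.96 in VAD, 11.36 in VAS, 11.45 in BMS and 11.38 in CTR. For all 3 Hsp70 genes VAD was the lowest array, and the difference from VAS was -0.75 for Hspa1b, -0.33 for Hspa1a and -0.40 for Hspa8. Among all genes Hspa1b ranked 124 and Hspa8 707 from the lowest difference.

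Their Hsp40 partners were lower by less. Dnajb1 stood at 9.23 in VAD, 9.50 in VAS, 9.63 in BMS and 9.20 in CTR, and Dnaja1 at 7.15 in VAD, 7.39 in VAS, 7.20 in BMS and 7.25 in CTR. Hsph1, an Hsp110 that exchanges nucleotide on Hsp70, was the exception, at 9.23 in VAD, 8.72 in VAS, 9.70 in BMS and 9.65 in CTR. Its value in VAS was 0.50 or more below each other array. Hsp90aa1, the inducible cytosolic Hsp90, stood below the filter at 4.60 in VAD, 4.95 in VAS, 4.52 in BMS and 4.26 in CTR and is only listed.

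The mitochondrial chaperonin genes share a promoter region, with 285 of the 300 bases of their windows in common on opposite strands, and 3 overlapping heat shock elements within it. Hspe1, the chaperonin lid, stood at 8.06 in VAD, 7.58 in VAS, 8.23 in BMS and 8.15 in CTR. Hspd1, the barrel, stood at 7.92 in VAD, 7.86 in VAS, 8.23 in BMS and 8.26 in CTR. Hspe1 was 0.48 higher in VAD than in VAS and Hspd1 0.06 higher, although both were lowest in VAS.

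**Figure D2:**
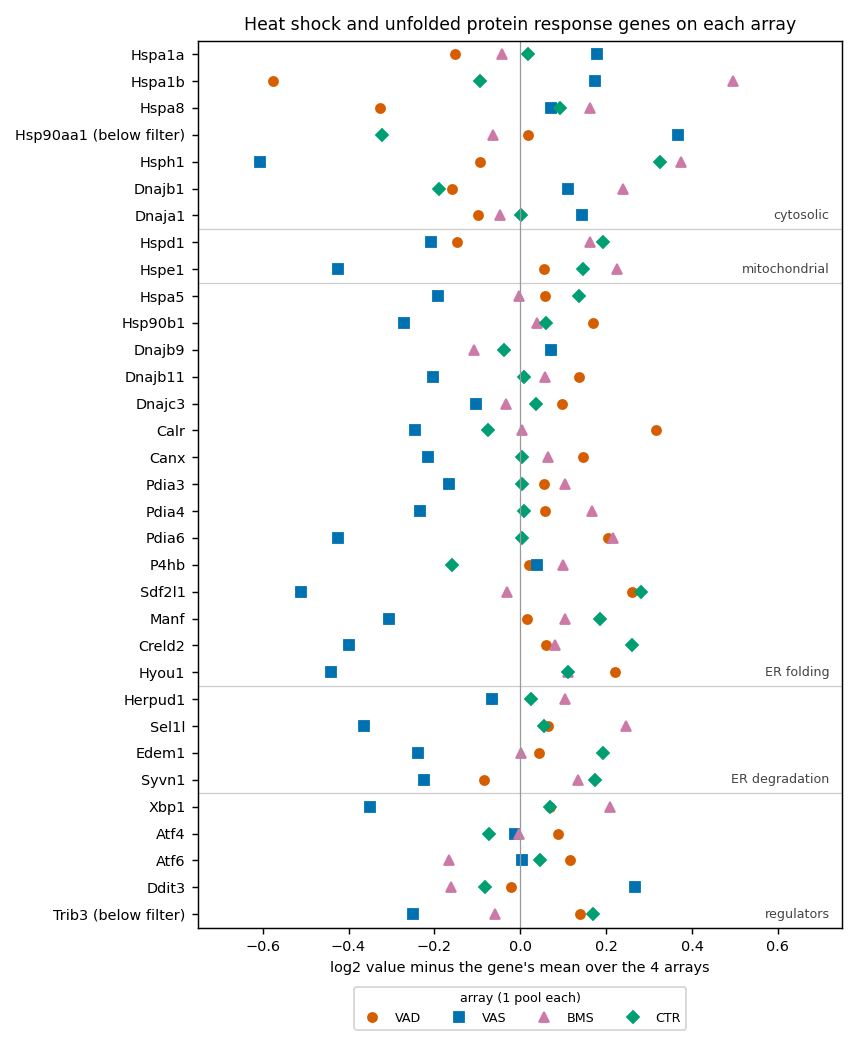
Each row is a member and each symbol an array (VAD circles, VAS squares, BMS triangles, CTR diamonds), plotted as its log2 value minus the gene's mean over the 4 arrays. VAS is the lowest array for 17 of the 19 ER genes, and VAD is the lowest for Hspa1a, Hspa1b, Hspa8 and Dnaja1.

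The ER median depended on the control. VAS was the lowest of the 4 arrays for 17 of the 19 ER members, where it was lowest for 30.5% of all genes. Set against CTR in place of VAS, the ER median in VAD was 0.05, with 12 of 19 above 0 (50.6% of all genes) and none 1.5-fold higher (4.29% of all genes). Of the 31 members, 14 had the opposite sign in VAD against CTR, among them Hsph1 (-0.43), Hspd1 (-0.34), Syvn1 (-0.27), Creld2 (-0.20), Manf (-0.17), Edem1 (-0.15), Hspa5 (-0.08) and Sdf2l1 (-0.02). The share of all genes that changed sign with the control was not computed, so this count is not particular to the members. For the cytosolic chaperones the median was -0.30 against either control. Against CTR, Hspa1b differed by -0.48, Hspa8 by -0.42 and Dnajb1 by 0.03.

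The second comparison asked how the genes stood when retinoic acid receptors were blocked, BMS against CTR. The ER genes did not lean either way, with 9 of 19 above 0 and a median of -0.01, and none was 1.5-fold apart. Over all genes 51.4% were above 0, 3.11% were 1.5-fold or more above CTR, and 1.89% as far below it. Of the cytosolic members 4 of 6 were above 0, with a median of 0.06, and Hspa1b was 1.51-fold higher, at the limit of the threshold. Dnajb1 was 0.44 higher, and the other 4 cytosolic members differed by 0.07 or less in either direction.

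Within the ER group the largest values in BMS were 0.25 for P4hb, 0.21 for Pdia6 and 0.20 for Sel1l, against -0.31 for Sdf2l1, -0.19 for Edem1 and -0.18 for Creld2. The regulators ran from -0.21 for Atf6 to 0.13 for Xbp1. Against VAS in place of CTR, the ER median in BMS was 0.28, with 18 of 19 above 0 (53.4% of all genes), and Pdia6 (0.65) and Sel1l (0.61) were 1.5-fold higher, as were 3.21% of all genes. As in the diet experiment, the ER median lay near 0 against CTR and above it against VAS.

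**Figure D3:**
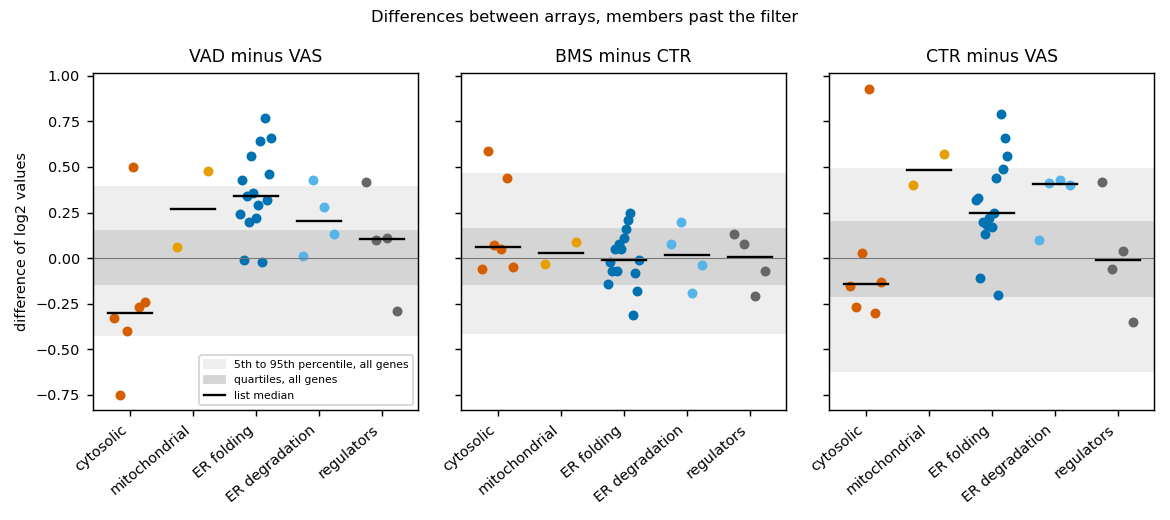
Difference of log2 values for each member past the filter (points), by compartment, for VAD minus VAS, BMS minus CTR and CTR minus VAS, with the list median (black line) and the quartiles and 5th to 95th percentiles of all 12395 genes (dark and light grey). The ER folding genes have medians of 0.34, -0.01 and 0.25 in the 3 panels, and the cytosolic chaperones -0.30, 0.06 and -0.14.

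The 2 vitamin A-sufficient controls differed from each other as much as VAD did from VAS. In CTR minus VAS the ER genes had a median of 0.32, with 17 of 19 above 0, where 50.4% of all genes were above 0. Sdf2l1 (0.79) and Creld2 (0.66) were at least 1.5-fold higher in CTR, as were 2.66% of all genes. Among the ER genes Hyou1 (0.56), Manf (0.49), Pdia6 (0.44) and Edem1 (0.43) followed. Outside the ER, Hspe1 was 0.57, Xbp1 0.42 and Hspd1 0.40 higher in CTR. Hsph1 was 1.91-fold higher in CTR than in VAS and ranked 51 of 12395 genes. The other cytosolic members past the filter lay between -0.30 for Dnajb1 and 0.03 for Hspa8, none of them 1.5-fold lower, where 5.87% of all genes were. The controls come from 2 experiments and differ in diet form, vehicle and pool, so group, experiment and pool cannot be told apart. Both VAD minus VAS and CTR minus VAS contain the VAS array, and their likeness is partly built in.

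The diet and antagonist experiments share no array, so they can be set side by side. Of the 19 ER members, 8 (42.1%) were higher in VAD than VAS and also in BMS than CTR, and 1 was lower in both, while 25.9% of all genes were higher and 22.9% lower in both. Taken singly, 17 of 19 were above 0 in VAD minus VAS and 9 of 19 in BMS minus CTR. With so many higher in VAD, most members higher in BMS were bound to be higher in both. The count of 8 therefore does not by itself show agreement of the experiments. Among those higher in both, Pdia6 (0.64 and 0.21), Sel1l (0.43 and 0.20) and Pdia4 (0.29 and 0.16) had the largest differences in BMS minus CTR. Calr (0.56 and 0.08) was above Sel1l and Pdia4 in VAD minus VAS. Hspa1b, with -0.75 and 0.59, stood on opposite sides in the 2 experiments.

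**Figure D4:**
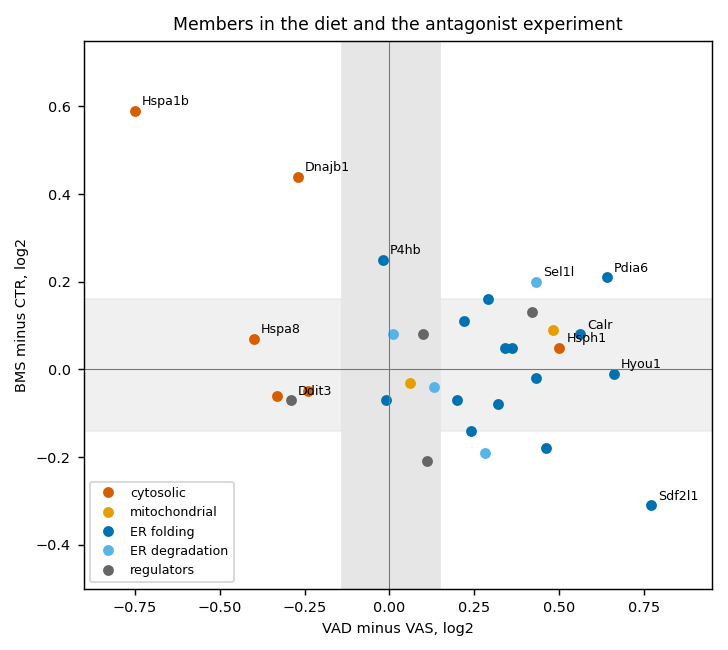
Members past the filter by their difference in the diet experiment (x axis, VAD minus VAS, log2) and in the antagonist experiment (y axis, BMS minus CTR, log2), coloured by compartment, with the quartile range of all genes in grey. ER genes spread to the right, between -0.31 and 0.25 on the y axis, and Hspa1b lies alone at -0.75 and 0.59.

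One fit puts more than 1 array on each side, VAD and BMS against VAS and CTR, with the experiment as a block and 1 residual degree of freedom. In it, limma called 0 of 12395 genes (0%) at an adjusted p under 0.05, and 0 of the 31 members. At an unadjusted p under 0.05 it listed 476 genes and 1 member, Pdia6, with a mean difference of 0.42 ± 0.16 (SE) on the log2 scale, a p of 0.0474 and an adjusted p of 1. Pdia6 was higher in both experiments. The fit takes the 2 treatments as the same condition. With 1 residual degree of freedom and 0 of all genes called, its result of 0 members does not show that they are unchanged.

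The presence of an ER stress element did not mark off the ER members by much. In VAD minus VAS the 8 members with the element had a median of 0.40 and all were above 0. The 9 ER members with a window and no such element had a median of 0.28, with 7 above 0. Among these 9, Dnajb11 and Herpud1 hold the variant ER element. In BMS minus CTR the medians were -0.03 and 0.08. Of the other pathway genes past the filter, Ero1b and Derl3 hold the element. They differed by 0.29 and 0.22 in VAD minus VAS, and by 0.08 and -0.02 in VAD minus CTR. A further 8 genes past the filter hold the element and are in no list here. Their median in VAD minus VAS was 0.03, with 4 above 0. Among these, Alg12, a mannosyltransferase of glycan assembly whose window shares 173 bases with that of Creld2 on the opposite strand, stood at 7.60 in VAD, 7.10 in VAS, 7.84 in BMS and 7.80 in CTR. Alg12 was thus low in VAS like Creld2, and the other 7 ranged from -0.23 for Spats2l to 0.36 for Zfp57 in VAD minus VAS. The 6 members with a heat shock element had a median of -0.09 in VAD minus VAS and 0.01 in BMS minus CTR.

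Other genes of the same pathways, taken from 7 further lists with 106 analysed genes, did not share the low VAS value as a whole. Of the 103 past the filter, 2 were at least 1.5-fold higher and 0 lower in VAD, 5 higher and 0 lower in BMS, and 1 higher and 3 lower in CTR against VAS. The shares of all genes at that threshold were 1.45% higher and 2.11% lower in VAD, 3.11% and 1.89% in BMS, and 2.66% and 5.87% in CTR against VAS. Of the 28 such genes named for VAD by rule, 14 had the opposite sign against CTR, and of the 27 named for BMS, 4 had it against VAS. For these changes of sign the share of all genes was not computed. None was 2-fold apart within an experiment. The 21 other ER folding, glycoprotein and redox genes had a median of 0.09 in VAD minus VAS and -0.11 in CTR minus VAS, unlike the ER members with 0.32 in both.

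In BMS minus CTR, by contrast, those 21 genes had a median of 0.21, with 19 above 0, where the ER members had -0.01. Fkbp14, a prolyl isomerase that acts on collagen, stood at 8.31 in VAD, 8.09 in VAS, 8.25 in BMS and 7.42 in CTR. Txndc5, a disulfide isomerase, stood at 8.60 in VAD, 8.54 in VAS, 8.92 in BMS and 8.23 in CTR. Pdia5, of the same family, was 0.66 higher in BMS. Fkbp14 was low in CTR alone, and Txndc5 was both high in BMS and low in CTR. In the degradation and translocon list Sec61b, a subunit of the channel into the ER, was 0.60 higher in BMS than in CTR but -0.03 against VAS, and Derl1 was 0.41 higher. Fibroblast markers were also higher in BMS than in CTR, 8 of 8, with a median of 1.14. Not all of them were low in CTR: in CTR minus VAS 6 were below 0 and 2 above, from -2.14 to 0.31. The median level of the fibroblast markers was 10.34 in BMS, against 8.87 in CTR, and 10.33 in VAD, against 10.23 in VAS. Their part in the ER values was not tested.

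The sensors and their transcription factors had medians of 0.17 in both experiments. Atf6b (0.52) and Creb3l2 (0.48), membrane-bound factors of the Atf6 kind, were the highest in VAD against VAS but stood at -0.04 and -0.12 against CTR. Creb3l1 (0.43) and Eif2ak3 (0.27), which encodes Perk, were the highest in BMS, while Ern1, which encodes Ire1, was -0.31 in BMS. In VAD minus VAS, Mbtps2 differed by -0.12 and Eif2ak3 by -0.11, against 0.22 and 0.01 in VAD minus CTR. Atf4 and Ddit3 targets had a median of 0.15 in VAD and 0.08 in BMS. Asns, asparagine synthetase, was 0.66 higher in VAD than in VAS and 0.82 higher than in CTR, while Sesn2 was 0.50 higher than in VAS and differed by -0.03 from CTR. Cth, which makes cysteine, was lower in both experiments, at -0.49 and -0.54. It stood near the filter of 6.05, at 5.65 in VAD, 6.14 in VAS, 5.37 in BMS and 5.91 in CTR. Cth passed the filter through VAS alone, so its lower value in VAD was partly set by the filter.

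Among 26 other cytosolic heat shock genes the medians were 0.07 in VAD and 0.08 in BMS, so the lower values of the Hsp70 genes in VAD were not shared by the wider list. Hsf2, a heat shock factor, was 0.72 higher in VAD than in VAS, and Dnajb2 0.46, with 0.20 and 0.15 against CTR. Hmox1, heme oxygenase, differed by -0.41 from VAS but by 0.72 from CTR, and Hspa2 by -0.26 and 0.21. In BMS, Hspa12b was 0.60 and Dnaja4 0.49 higher, with Dnajb6 at -0.30 and Hspa2 at -0.24. The 8 subunits of the TRiC chaperonin, which folds actin and tubulin, stayed within -0.08 and 0.23 in both experiments, and their medians were 0.08 and 0.05. The mitochondrial list had medians of -0.05 and 0.07, with Lonp1, a matrix protease, at 0.34 and 0.24.

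Of the remaining genes named by the same rule, Grpel1 (-0.17) and Clpp (-0.11) were the lowest mitochondrial genes in VAD, and Atf5 was the highest in BMS (0.38). Uggt1 and Ganab, which act on glycoproteins in the calnexin cycle, were both 0.44 higher in VAD, with Sil1 at -0.15 and Fkbp7 at -0.12. Against CTR, Sil1 was at 0.11, Fkbp7 at 0.21 and Grpel1 at 0.14. Derl2 (0.37) and Sec61g (0.32) were higher in VAD, with Erlec1 at -0.45 and Edem2 at -0.21. Against CTR, Derl2 was at -0.06, Sec61g at 0.56, Erlec1 at 0.01 and Edem2 at -0.05. In BMS, Gars was 0.37 higher, and Derl3 (-0.29), Atf3 (-0.21) and Selenok (-0.19) were lower. Derl3, at 5.77 in BMS and 6.06 in CTR, passed the filter of 6.05 through CTR alone.

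**Figure D5:**
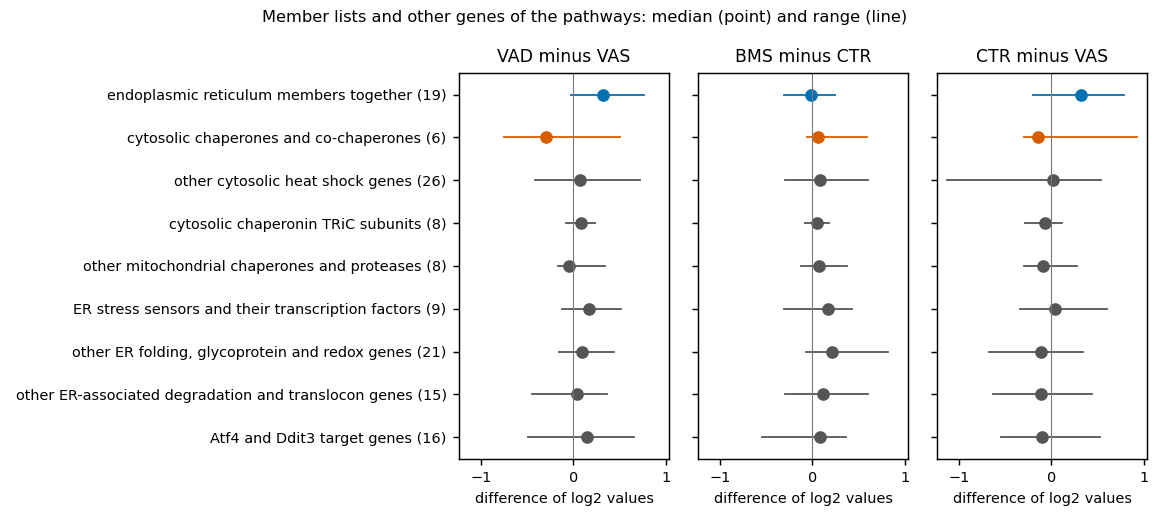
Median (point) and range (line) of the difference in log2 values for the ER members (blue), the cytosolic members (orange) and 7 lists of other pathway genes (grey), with the number of genes past the filter in brackets, for the 3 differences. The ER members have medians of 0.32, -0.01 and 0.32, and the other ER folding genes 0.09, 0.21 and -0.11.

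Markers of other cells also set arrays apart. The 4 of 7 alveolar epithelial markers past the filter were lower in VAD than in VAS, by -1.58 to -0.59, with a median level of 6.86 in VAD, against 7.69 in VAS, and of 6.51 in BMS, against 6.52 in CTR. The median difference of these 4 in CTR minus VAS was -1.58, so they were highest on the array where the ER genes were lowest. Slc34a2, 1 of the 4, stood at 6.69 in VAS and at 5.78 or below elsewhere. It passed the filter through VAS alone, so its direction was partly set by the filter. Sftpd, Lamp3 and Napsa, below the filter, differed by -0.22, -0.17 and -0.07 in VAD minus VAS. Fibroblast markers had a median of -0.70 in CTR minus VAS, with 6 of 8 below 0 and 2 above, and -0.07 in VAD minus VAS. Of the pericyte and vascular muscle markers 6 of 6 were above their VAS value in CTR (median 0.35), and their median level was 9.31 in VAD, against 9.04 in VAS, and 9.32 in BMS, against 9.67 in CTR. Airway smooth muscle markers were 10 of 10 higher in VAD than in VAS, with a median of 0.19, and 10 of 10 lower in BMS than in CTR, with a median of -0.17. The median over the 3 of 7 analysed lymphocyte and granulocyte markers past the filter was 9.19 in VAD, against 8.99 in VAS, and 6.93 in BMS, against 6.47 in CTR, while the medians of the differences were -0.02, -0.30 and, in CTR minus VAS, -2.00. These 3 did not move together: in CTR minus VAS the granulocyte genes S100a8 and S100a9 were at -2.00 and -2.74, and the lymphocyte gene Cd3e at 0.36. Of the macrophage markers, 3 of 5 passed the filter. Their median level was 6.64 in VAD, against 6.49 in VAS, and 5.67 in BMS, against 5.78 in CTR. Their median difference in CTR minus VAS was -0.47. Mrc1 and Chil3 passed the filter through VAD and VAS only, so their lower values in BMS and CTR were partly set by the filter. Marco and Adgre1, below the filter, differed by -0.16 and -0.38 in CTR minus VAS. Of the plasma cell markers, Jchain, Mzb1, Tnfrsf17 and Irf4 lay below the filter on all arrays and Sdc1 differed by 0.09 in VAD. Endothelial markers had medians of 0.15 and 0.22, and of the airway epithelial markers only Scgb1a1 passed the filter. The part of these cells in the values of the chaperone genes was not tested.

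The 10 immediate early genes that sorting can induce, such as Fos and Egr1, had medians of 0.06 in VAD minus VAS, 0.00 in BMS minus CTR and -0.03 in CTR minus VAS, and none was 1.5-fold apart. Atf3 is in this list and in that of Atf4 targets. In VAD, 8 of these 10 were above their VAS value, none by more than 0.26, where 51.4% of all genes were above 0. Their relation to the lower Hsp70 values in VAD was not tested.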

How the data were processed

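RNA of sorted airway smooth muscle cells was hybridised to 4 Affymetrix arrays. The authors deposited log2 values from RMA (background correction, normalization between arrays, probe summary), run in affy 1.36.1 with R 2.15.1 by the submitters' processing notes. The sources used here do not say whether other arrays were normalized along with them. Normalization of this kind hides a shift shared by most genes. No scanner files were used, so detection above background was not assessed. Precision is limited by having 4 arrays.

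Probe sets carry Entrez numbers. Of 25206, 23185 had 1 symbol in GEO's platform annotation, 2021 are unnamed here and 0 had more than 1. RefSeq (GRCm38.p6) held all 23185 by Entrez number. No array copied another (68 to 89 equal values per pair).

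Each comparison is a difference of 2 log2 values. The share of all genes past the same threshold is given with counts of members at 1.5-fold or above 0 in each comparison. It was not computed for the lower threshold of the closing section or for changes of sign between controls. The fit across all genes was limma (lmFit, eBayes) with Benjamini-Hochberg adjustment, tested on simulated data. Motifs were searched on both strands of RefSeq windows. The fits ran in limma 3.58.1 under R 4.3.3, and everything else in Python 3.11.15 (matplotlib 3.10.9, pandas 2.3.3, numpy 2.4.6, scipy 1.17.1).

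The members and lists were chosen with earlier results of these data known. Named are members at least 1.5-fold apart in any difference, the 2 highest and 2 lowest of each member list within each experiment, and likewise of each other pathway list. Hspa5, Hsp90b1, Calr, Canx, Dnajb11, Dnajc3, Manf, Pdia3, Pdia4, Pdia5, Alg12, Spats2l and Zfp57 were named after their values were seen. The pathway genes Vldlr, Clpx, Cct2, Cct3, Cct4, Cct6a, Cct8, Tcp1, Hspa13 and Txndc11, also met by the rule, all lay within 0.25 of 0 within each experiment. Alternatives were other filters, normalizations, folds, controls, centring and limma settings, and leaving out each array.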

Additional observations from a re-analysis of the deposited data

Results flagged for a closer look

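Hspa1b stood on opposite sides of its control in the 2 experiments. It differed by -0.75 in VAD minus VAS and by 0.59 in BMS minus CTR, each on the log2 scale from 1 array per group. The difference between the experiments was not tested. Against the other experiment's control it differed by -0.48 in VAD and 0.33 in BMS, with the same signs. Its near-copy Hspa1a differed by -0.33 and -0.06, and signal shared between these near-identical genes cannot be told apart.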

How the results depend on the processing

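The labels give no replicate numbers, and the joint limma fit pairs arrays only through the experiment as a block. Without that block it called 0 members, with 231 genes in place of 476 at an unadjusted p under 0.05. The choice of control moved the results. Against the control of the other experiment, the median of the ER genes was 0.05 in VAD (0 at least 1.5-fold higher) and 0.28 in BMS (2 higher), and 0 cytosolic members were 1.5-fold lower in VAD. Against the mean of both controls the ER medians were 0.14 in VAD (0 higher) and 0.15 in BMS, and the cytosolic median in BMS was 0.19 with 0 members 1.5-fold higher. Against the other control 14 of 31 members changed sign in VAD and 10 in BMS, as did 14 of 28 other named pathway genes in VAD and 4 of 27 in BMS. Among those at least 1.5-fold apart, these were Sdf2l1 in VAD (-0.02) and Sec61b in BMS (-0.03). Hsph1 (-0.43) and Hmox1 (0.72), in VAD, turned by more. The cause was not tested, and the share of all genes that changed sign was not computed.

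At a fold of 2, each count of ER or cytosolic members was 0. At a lower threshold, a difference of 0.32 on the log2 scale, 9 ER members were higher in VAD and 10 in CTR against VAS, 1 cytosolic member was higher and 3 were lower in VAD, and 2 were higher in BMS. The share of all genes past 0.32 was not computed. Over all genes the upper quartile and 95th percentile were 0.15 and 0.39 in VAD minus VAS. They were 0.16 and 0.46 in BMS minus CTR, and 0.20 and 0.49 in CTR minus VAS. The lower quartile and 5th percentile in VAD minus VAS were -0.14 and -0.42. Hspa1b fell under 1.5-fold in BMS with quantile normalization (0.55) or cyclic loess (0.57), which leaves 0 cytosolic members higher there. With no filter, 1 cytosolic member, Hsp90aa1, was 1.5-fold lower in CTR than in VAS. The stricter filter (7.67) and centring moved no median by 0.1 and no count by over 1.5 times. limma called 0 members under all 10 alternatives. Leaving out each array in turn, with no block and with the lone array of a side assumed to vary like the others, gave 0 to 0 members called. Each of these fits leaves 1 array on a side, so their unadjusted p-values are not read. Without CTR the only control is VAS, which was the lowest array for 17 of the 19 ER members. Counts of 0 from fits on so few arrays do not show that the members are unchanged.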
